A study of Sus scrofa with 32 samples.

Results

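Group 3 innate lymphoid cells (ILC3s) of the pig ileum were described in 6 ileal single-cell RNA-seq libraries. Cells were chosen by their own transcript counts. A droplet barcode was kept at 1250 or more unique molecular identifiers (UMIs, each counted as 1 captured transcript), 550 or more detected genes and at most 12.5% of UMIs from mitochondrially encoded genes. Kept barcodes then entered the gate with 3 or more UMIs of IL22, 1 or more of IL7R, and 0 of CD3E, TRDC, CD79B and EPCAM. The gate held 83 of 35386 kept ileal barcodes, or 0.235%. Because these 6 genes chose the cells, their levels are given as a description and were not tested.

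Ileum was taken from 2 mixed-breed pigs at an age of 7 weeks, pig 1 labelled female and pig 2 labelled male. For each pig, separate libraries were made from ileum dissected to hold Peyer's patches (PP), from ileum lacking them (non-PP), from a complete ileal cross section (whole ileum) and from peripheral blood mononuclear cells (PBMC). Epithelial and digested tissue fractions of an ileal sample were pooled and enriched for viable lymphocytes on a density gradient and by dead-cell removal, so shares of barcodes are not shares of tissue. The ileal libraries held 21134542 to 40111934 UMIs, and by the labels every comparison below rests on 2 animals. P-values between populations measure the spread between sums labelled pig 1 and pig 2, and those between dissections the spread between libraries. The label of whole ileum pig 1 is taken up below.

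ILC3s are lymphocytes without a rearranged antigen receptor. In the gut they answer IL-23 and IL-1 from myeloid cells with IL-22 and IL-17 family cytokines. IL-22 acts on epithelial cells and promotes their defence and repair, and lymphotoxin from the same lineage takes part in building lymphoid tissue. KIT, the stem cell factor receptor, and IL7R, the IL-7 receptor chain, are carried on much of the ILC lineage.

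The library labelled whole ileum pig 1 went against its label. Transcripts of 4 Y-linked genes reached 207 CPM there, where CPM is a gene's UMIs per 1000000 UMIs of the cells summed, close to the 213, 185 and 226 CPM in the PP, non-PP and whole ileum libraries of pig 2. They reached 0.161 and 0.224 CPM in the PP and non-PP libraries of pig 1. Of the 15 gated cells in that library, 7 carried a Y-linked UMI, against 0 of 16 and 0 of 6 in the other ileal libraries of pig 1. Counts of called genes are therefore also given without it. Among kept ileal barcodes, 673 barcode sequences occurred in more than 1 ileal library. Of the 83 gated barcodes, 3 were also kept in another library and 0 were gated in more than 1.

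Gated cells were found in all ileal libraries and in neither blood library. They numbered 16 in PP pig 1, 22 in PP pig 2, 6 in non-PP pig 1, 12 in non-PP pig 2, 15 in whole ileum pig 1 and 12 in whole ileum pig 2. As a share of kept barcodes this was 0.218% in PP pig 1 (exact 95% binomial interval 0.125 to 0.354%) and 0.320% in PP pig 2 (0.201 to 0.484%). It was 0.154% in non-PP pig 1 (0.0564 to 0.334%) and 0.318% in non-PP pig 2 (0.164 to 0.554%). The whole ileum libraries gave 0.259% for pig 1 (0.145 to 0.427%) and 0.156% for pig 2 (0.0805 to 0.272%). The intervals cover counting error only, and all 6 overlapped.

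PP and non-PP ileum did not differ in this share beyond the spread of their libraries. The means were 0.269% ± 0.0722 in PP and 0.236% ± 0.116 in non-PP (SD, n = 2), a difference of 0.0334 percentage points. The exact two-sided permutation test gave p = 0.667, and 2 libraries against 2 allow no p below 0.333. Within pig 1 the difference was 0.0645 and within pig 2 it was 0.00234 percentage points. Taken over barcodes with an IL7R or CD3E UMI and without CD79B and EPCAM, the PP mean was 1.04% ± 0.235 and the non-PP mean was 0.330% ± 0.197 (SD, n = 2), the smallest p the design allows, exact permutation p = 0.333.

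In blood, 0 of 13243 kept barcodes met the gate, which allows a share of up to 0.0227%. A single IL22 UMI was counted in all kept blood barcodes. In the ileum 9775 IL22 UMIs were counted, of which the gated cells held 34.3% and the T cells described below held 39.2%. The gated share of IL22 UMIs was 22.9% in PP pig 1, 46.2% in PP pig 2, 23.8% and 24.2% in non-PP pigs 1 and 2, and 38.0% and 51.6% in whole ileum pigs 1 and 2.

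**Figure D1:**
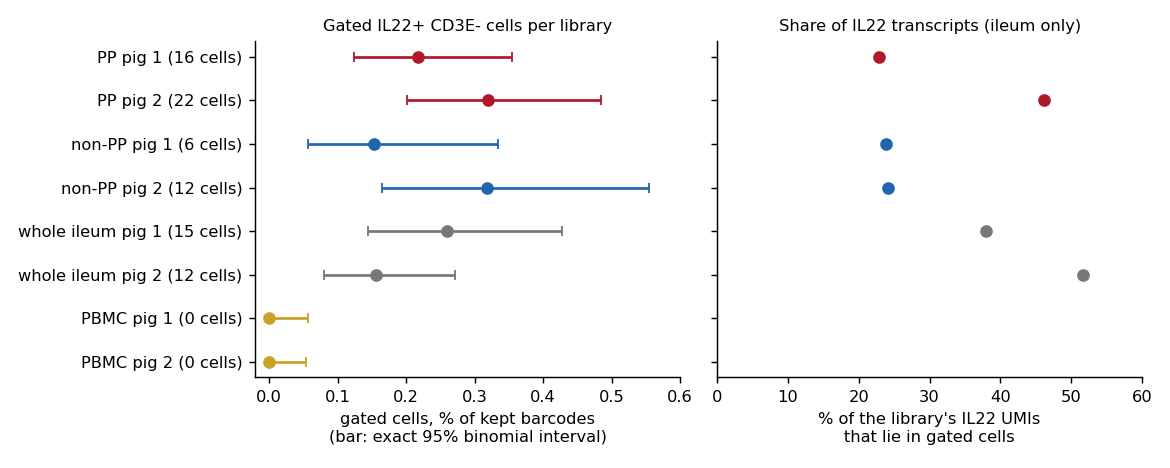
Left, gated cells as a percent of kept barcodes in each of the 8 libraries (points, with exact 95% binomial intervals as bars and cell numbers in the labels). Right, the percent of each ileal library's IL22 UMIs that lay in gated cells. The ileal shares ran from 0.154 to 0.320% with overlapping intervals, and both blood libraries were at 0.

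IL22 transcripts varied widely among the gated cells. The median was 28 UMIs per cell, with quartiles of 11.5 and 50 and a range of 3 to 196. Summed over the gated cells of a library, IL22 stood at 13950 CPM in PP pig 1, 12690 CPM in PP pig 2, 10085 CPM in non-PP pig 1, 3927 CPM in non-PP pig 2, 13044 CPM in whole ileum pig 1 and 13112 CPM in whole ileum pig 2. Non-PP pig 2 was the lowest of the 6 libraries. IL22 (chromosome 5, 32599522 to 32604507 in the RefSeq annotation of Sscrofa11.1) lies beside IL26 (32568189 to 32583278) and IFNG (32477906 to 32482670). Of the gated cells, 37 carried IL26, a cytokine of the same receptor family as IL-22, whereas 1 carried IFNG, the type 1 cytokine.

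Few cells lay near the IL22 limit of the gate and many lay near that of IL7R. Only 1 gated cell had exactly 3 IL22 UMIs, and 7 barcodes missed the gate with 2 UMIs. Of those 7, 7 carried KLRB1 and 5 KIT. A further 51 barcodes met every other limit but had no IL7R UMI, with a median of 12 IL22 UMIs, and 36 of them carried KLRB1 and 22 KIT. Of the gated cells, 40 had a single IL7R UMI. With a single CD3E UMI in place of 0, 15 barcodes met the other limits, of which 9 carried CD3G and 3 carried KIT.

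The label of ILC3 was checked on genes outside the gate. KIT was found in 60 of the 83 cells, KLRB1 (the C-type lectin CD161) in 68, CXCL8 (a neutrophil chemoattractant) in 44 and IL23R (the IL-23 receptor) in 26. Of these 4 genes, 32 cells had 3 and 6 had all, 35 cells had 2, 8 had 1 and 2 had none. KIT and CXCL8 were found together in 30 cells, KIT without CXCL8 in 30, CXCL8 without KIT in 14 and neither in 9. The adaptor genes TYROBP and FCER1G were detected in 72 and 75 cells, and ID2, a regulator that ILC development needs, in 82. CCR6, TNFSF4 and NCR1 had 0 UMIs in the gate and 0 in the IL22+ T cells described below. In the other populations below, CCR6 had 1 UMI in 14661 B cells and TNFSF4 1 UMI in 12529 IL22- T cells. A count of 0 for CCR6 or TNFSF4 therefore does not set the gate apart. Of the T cell receptor complex, CD3D was found in 2 cells, CD3G in 13 and CD247 in 11, and 22 cells (26.5%) had at least 1 of these 3.

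Shares of cells with a UMI depend on depth, and free RNA in the droplets gives UMIs in cells that do not make a transcript. Barcodes with CD79B and without CD3E, taken as B cells, served as the background, with a median of 2989 UMIs against 3473 in the gated cells. Each cell was thinned to 1250 UMIs, for all gated cells and for 2000 B cells drawn from 14661. No cell was too shallow for this. KIT was then found in 53.0% of gated cells and 0.25% of B cells, KLRB1 in 77.1% and 0.65%, CXCL8 in 33.7% and 0.75%, and IL23R in 13.3% and 0.05%. Without thinning the gated shares were 72.3% for KIT, 81.9% for KLRB1, 53.0% for CXCL8 and 31.3% for IL23R. CD3G stood at 10.8% in gated cells and 3.25% in B cells when thinned, CD3D at 1.20% and 1.35%, and CD247 at 7.23% and 30.55%. Without thinning, 26.5% of gated cells and 60.9% of B cells had at least 1 of these 3 genes. IL22 itself had 1 or more UMIs in 1.72% and 3 or more in 0.164% of B cells.

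Cytotoxic transcripts of the gated cells were set beside that background, which differed widely between libraries. B cells numbered 3881 and 3800 in PP pigs 1 and 2, 28 and 65 in non-PP, and 2041 and 4846 in whole ileum. GNLY, which encodes granulysin, stood at 191 CPM in gated cells and 255 CPM in B cells, and GZMB, encoding granzyme B, at 296 and 245 CPM. When thinned, 20.5% of gated cells and 15.1% of B cells carried GNLY, and 21.7% and 16.1% carried GZMB. CCL5, a chemokine of cytotoxic lymphocytes, was at 668 CPM in gated cells and 339 CPM in B cells over all libraries. Within libraries CCL5 of the gated cells was above that of B cells in both PP libraries and whole ileum pig 2 (912 against 292, 525 against 283 and 925 against 289 CPM). It was at 639 against 640 CPM in non-PP pig 1, 616 against 579 CPM in whole ileum pig 1 and 527 against 1811 CPM in non-PP pig 2. GNLY was under the B cell level of its library in 4 of 6, as in non-PP pig 2 (448 against 2647 CPM) and PP pig 2 (22.8 against 221 CPM), and GZMB in 5 of 6.

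Most defining markers of other cell types were at or near 0 in the gated cells. Over the gated cells, 4 B cell markers summed to 13.9 CPM (2 of 4 detected, CD79A and PAX5 at 0), 5 epithelial markers to 20.9 CPM (3 detected, KRT18 and FABP2 at 0) and 4 stromal markers to 6.96 CPM (2 detected, COL3A1 and VWF at 0). The 9 macrophage and dendritic markers summed to 101 CPM, most of it CST3, with C1QA, CD163, FLT3 and SIRPA at 0. The antibody-secreting markers summed to 310 CPM, led by XBP1, with TNFRSF17 at 0, and 3 neutrophil markers were all at 0. Mast cell markers summed to 341 CPM, of which FCER1A gave 97 of 98 UMIs, while GATA2, MS4A2 and HPGDS were at 0. By library the mast cell sum was 376, 411, 0, 501, 168 and 420 CPM in the order PP, non-PP and whole ileum with pig 1 first. Cycling markers summed to 425 CPM, led by STMN1. The doublet score marked 1 of the 83 cells and between 2.73 and 3.75% of kept barcodes in the ileal libraries.

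**Figure D2:**
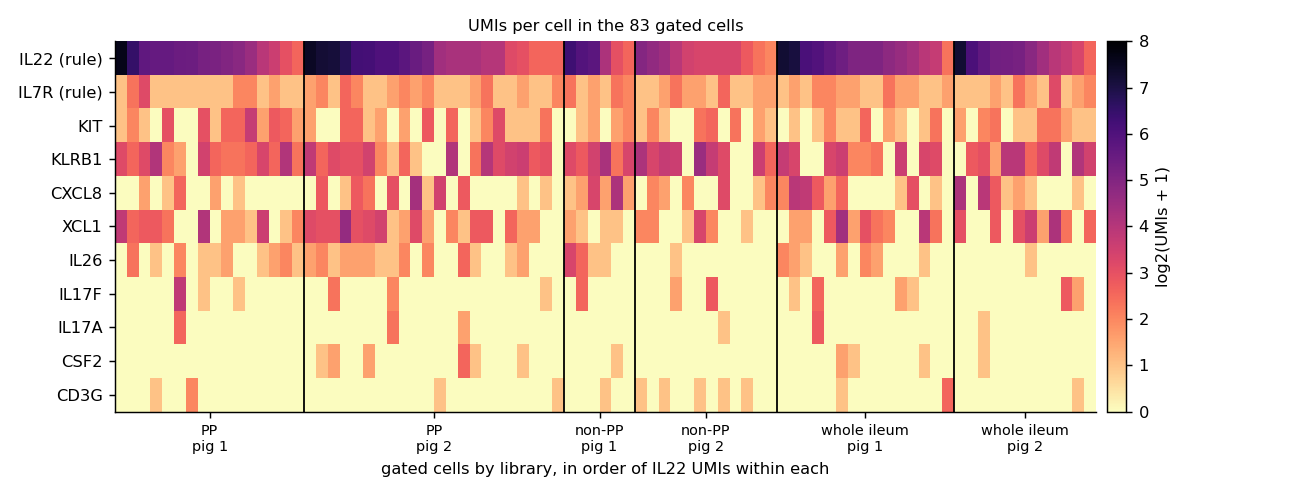
UMIs per gated cell, as log2(UMIs + 1), for 11 genes (rows) in the 83 cells (columns), grouped by library and sorted by IL22 within a library. IL22 and IL7R were used by the rule. KLRB1 and KIT run through all 6 libraries, whereas IL17A, IL17F and CSF2 appear in few cells and CD3G in 13.

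The gated cells were compared with 3 other ileal populations, with UMIs summed per pig and population and 1 edgeR quasi-likelihood fit over the 8 sums. Genes counted as called had a p under 0.05 after Benjamini-Hochberg adjustment over all tested genes and a log2 fold change beyond 1 in size, and genes of the gates were left out. The first comparator was IL22+ T cells, which had 3 or more IL22 UMIs and 1 or more CD3E UMIs (224 cells). They numbered 65 in PP pig 1, 39 in PP pig 2, 27 and 30 in non-PP pigs 1 and 2, and 43 and 20 in whole ileum pigs 1 and 2. Their median IL22 count was 7 UMIs and their median depth 2684.5 UMIs. They were not uniform. Of the 224, 167 carried none of KIT, CXCL8, IL23R and KLRB1, and 23 carried 3 or more. Those 23 had a median of 4924 UMIs and 7 of them carried CD3G. The T cells were not limited on CD79B or EPCAM, and 13.8% carried CD79B and 3.57% EPCAM. Their B cell markers summed to 86.4 CPM against 13.9 CPM in the gate, epithelial markers to 190 against 20.9 CPM and cycling markers to 1048 against 425 CPM. The doublet score marked 10 of the 224. Of the markers tested in these 3 lists, PCLAF, a gene of DNA replication, was the only one called, lower in the gate at -2.57 ± 0.58 (SE, adjusted p = 0.031), and it was not called without whole ileum pig 1 or with the T cells matched to the gate's limits. With pig as replicate block 1 epithelial marker was called lower too. The part of such cells in the differences was not tested.

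Against IL22+ T cells, gated ILC3s were higher for KIT, KLRB1, TYROBP, FCER1G, the chemokines XCL1, CXCL8 and CXCL2 and lymphotoxin beta, and lower for CCL5 and for genes of the T cell receptor complex and its signalling. CD3E, a gene of that complex, chose both populations, so the choice favoured lower levels of such genes in the gate. Of 6683 genes tested, 164 were higher (2.45%) and 143 lower (2.14%), 4.59% together. Over all genes tested the median log2 fold change was -0.12. Without the library labelled whole ileum pig 1 the counts were 79 and 68. Against the 54 IL22+ T cells that also met the gate's limits on IL7R, TRDC, CD79B and EPCAM (36 of pig 1 and 18 of pig 2), they were 31 and 22. Those of KLRB1, CXCL8, CXCL2 and LTB were among the calls lost against these matched T cells. Of the 57 genes named as called in this comparison, 22 were called under every alternative that tested them.

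Among receptors, 11 of the 21 listed genes passed the filter on low counts, 5 were higher, 0 were lower and their median log2 fold change was 1.21. Without whole ileum pig 1, 2 of 9 were higher, and with the matched T cells 1 of 11, KIT. KIT stood at 675 CPM in gated cells of pig 1 and 564 CPM in pig 2, and at 102 and 76.7 CPM in IL22+ T cells. Over the gated cells of the 6 libraries KIT ran from 365 to 1129 CPM with a median of 545. Against IL22+ T cells the log2 fold change of KIT was 2.81 ± 0.18 (SE, adjusted p = 2.8e-05). IL2RA, the high-affinity IL-2 receptor chain, was higher by 1.87 ± 0.29 (SE, adjusted p = 0.0047), and IL1R1, the IL-1 receptor, by 3.13 ± 0.70 (SE, adjusted p = 0.034). Both calls were lost with the matched T cells. That of IL1R1 was also lost without whole ileum pig 1, without the count filter, with an IL22 limit of 5 UMIs and with CD3D and CD3G also at 0. IL4R and TNFRSF18 were the other receptors called higher, and both calls were lost with the matched T cells and without whole ileum pig 1. IL23R was at 119 and 130 CPM in gated cells and 64.6 and 30.7 CPM in IL22+ T cells, which did not pass the threshold (log2 1.36, 95% interval 0.52 to 2.20, adjusted p = 0.066). With pig as replicate block 6 of 11 receptors were called higher. Among the receptors not called without the block, IL23R alone had a log2 fold change above 1. Of 6 uncalled genes checked with sums per library and pig as replicate block, 0 gained a call.

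Among type 3 cytokines and chemokines, 12 of 16 genes were tested beside IL22 itself, 5 were higher and 2 lower. Without whole ileum pig 1, 3 of 10 were higher and 1 lower, and with the matched T cells 2 of 12 were higher and 0 lower. CXCL8 stood at 762 and 769 CPM in gated cells of pigs 1 and 2 and at 310 and 129 CPM in IL22+ T cells, higher by 1.81 ± 0.33 on the log2 scale (SE, adjusted p = 0.011). CXCL2, a second neutrophil chemoattractant, was higher by 3.57 ± 0.48 (SE, adjusted p = 0.0019), and 1 cell held 19.0% of its UMIs in the gate. Both calls were lost with the matched T cells (adjusted p = 0.41 and 0.055), and that of CXCL8 without whole ileum pig 1 (adjusted p = 0.092). XCL1, which attracts cross-presenting dendritic cells, was at 1103 and 1166 CPM against 332 and 338 CPM, higher by 1.80 ± 0.13 (SE, adjusted p = 5.8e-05). TNF was at 198 and 186 CPM against 60.9 and 36.8 CPM and kept its call in every alternative. CSF2, encoding GM-CSF, was found in 11 gated cells and was higher by 3.22 ± 0.74 (SE, adjusted p = 0.031), a call lost with the matched T cells, without the count filter, with an IL22 limit of 5 UMIs and with CD3D and CD3G also at 0.

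IL17F and IL26 did not pass the threshold between the innate cells and the T cells in any setting that tested them, and their direction was not stable. IL17F was carried by 15 gated cells, at 230 CPM in pig 1 and 149 CPM in pig 2 against 255 and 95.1 CPM in IL22+ T cells (log2 0.09, 95% interval -0.85 to 1.02). IL17A was carried by 6 gated cells, and 3 cells carried both IL17A and IL17F. IL26 was at 389 and 192 CPM against 340 and 117 CPM (log2 0.32, 95% interval -0.99 to 1.63). With the matched T cells the log2 fold changes turned to -1.02 for IL17F (adjusted p = 0.53) and -0.61 for IL26 (adjusted p = 0.71). IFNG and IL10 were called lower, and both calls were lost with the matched T cells and that of IL10 also without whole ileum pig 1. A single UMI of each was counted in the gate, against 84 and 126 UMIs in IL22+ T cells, CPM ratios of 0.0360 (95% counting interval 0.00090 to 0.206) and 0.0240 (0.00060 to 0.136).

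Among lymphoid tissue inducer ligands, 7 of 8 genes were tested and 1 was called. LTB, encoding lymphotoxin beta, stood at 2310 CPM in gated cells of pig 1 and 1674 CPM in pig 2, against 829 and 767 CPM in IL22+ T cells (log2 1.35 ± 0.18, SE, adjusted p = 0.0021). The call was lost with the matched T cells (adjusted p = 0.059) and with sums per library. B cells carried LTB too, at 768 CPM. TNFSF11, encoding RANK ligand, was found in 4 gated cells and LTA in 8.

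**Figure D3:**
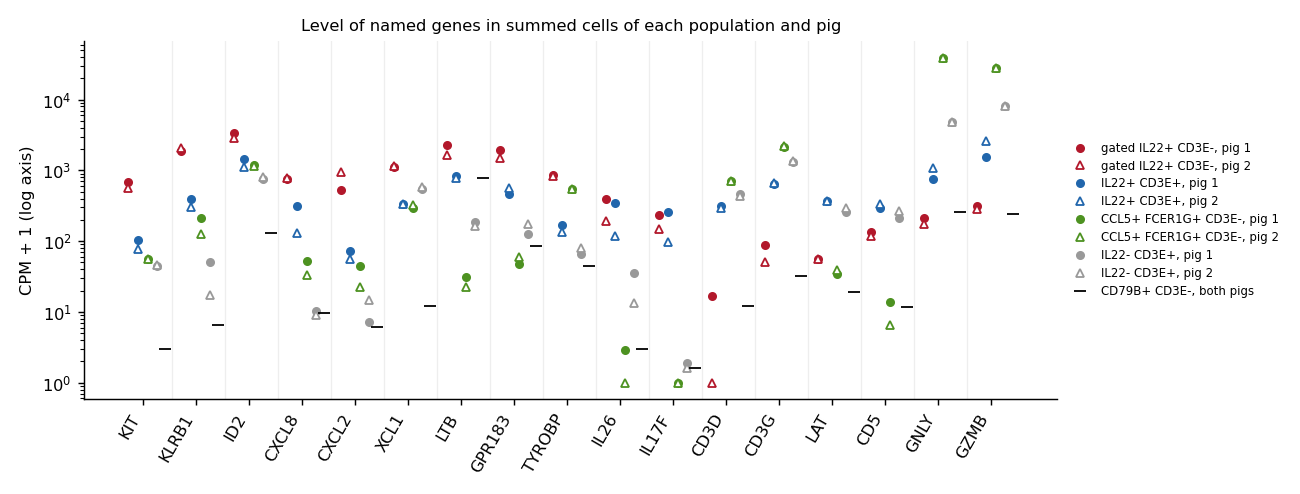
Level of 17 genes in CPM + 1 (log axis) in UMIs summed over the gated cells and 3 comparators, for pig 1 (filled circles) and pig 2 (open triangles), with CD79B+ CD3E- barcodes of both pigs as dashes. KIT, KLRB1, CXCL8 and CXCL2 were highest in the gated cells of both pigs, and the dashes stand for levels summed over all libraries.

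Transcription factors moved in both directions, with 5 of 24 tested genes higher, 3 lower and a median log2 fold change of -0.0031. With the matched T cells 2 were higher and 1 lower. ID2 was at 3366 and 2884 CPM in gated cells of pigs 1 and 2 and at 1466 and 1123 CPM in IL22+ T cells, higher by 1.30 ± 0.14 (SE, adjusted p = 6.0e-04), and was called in every alternative. GATA3, BATF3 and NFIL3, factors of lymphoid and ILC development, rose by 1.39, 1.64 and 1.01 on the log2 scale, and the calls of GATA3 and BATF3 were lost with the matched T cells. NFIL3 lay just past the limit of 1 and was lost in 6 alternatives, that without whole ileum pig 1 among them. LEF1, a factor of naive T cells, had 0 UMIs in the gate and 18 in IL22+ T cells, and its call was lost in 7 alternatives, among them pig as replicate block (adjusted p = 0.069) and the matched T cells. IKZF3 and BATF were lower, with log2 fold changes of -2.51 and -1.75, and the call of BATF was lost with the matched T cells.

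Genes of T cell receptor signalling were lower or not called, a direction that the CD3E limits of the 2 populations favoured. Of 22 listed genes 21 were tested, of which 0 were higher, 10 were lower, and the median log2 fold change was -1.61. Without whole ileum pig 1, 10 were lower, without CD5 among them, and with the matched T cells 7. CD3D gave 2 UMIs in the whole gate against 263 in IL22+ T cells, a ratio of 0.0230 (95% counting interval 0.00277 to 0.0838). CD3G was at 87.3 and 49.6 CPM against 644 and 669 CPM, lower at -3.27 ± 0.20 on the log2 scale (SE, adjusted p = 2.8e-05). LAT, an adaptor of receptor signalling, was at 55.6 and 55.8 CPM against 367 and 371 CPM (-2.69 ± 0.20, SE, adjusted p = 5.8e-05), and LCK, the receptor-proximal kinase, was lower, at -1.61 ± 0.15 (SE, adjusted p = 0.00028). CD28, the costimulatory receptor, had 0 UMIs in the gate and 67 in IL22+ T cells, at least 7.39-fold higher there when the gate is set at a floor of 3 UMIs over all its cells.

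CD2 was found in 78 of the 83 gated cells. CD2, an adhesion receptor of T and NK cells, was at 976 and 794 CPM in gated cells and 698 and 687 CPM in IL22+ T cells (log2 0.38, 95% interval 0.08 to 0.68, not called). CD5, an inhibitory receptor of T cells, was found in 25 gated cells and 15.7% after thinning, against 1.75% of B cells. Its log2 fold change against IL22+ T cells was -1.28 ± 0.29 (SE, adjusted p = 0.032), a call lost with the matched T cells, without whole ileum pig 1 and without the count filter. CD4 was carried by 1 gated cell, and CD8A and CD6 had 3 and 1 UMIs in the gate.

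The cytotoxicity list divided, with 5 of 16 tested identifiers higher and 4 lower. Without whole ileum pig 1 these were 3 and 4, and with the matched T cells 3 and 3. KLRB1 stood at 1889 and 2102 CPM in gated cells and 393 and 304 CPM in IL22+ T cells, higher by 2.55 ± 0.44 (SE, adjusted p = 0.0083), and its call was lost with the matched T cells (adjusted p = 0.12) and without whole ileum pig 1 (adjusted p = 0.087). TYROBP, an adaptor of innate receptors, was at 857 and 843 CPM against 168 and 132 CPM, higher by 2.52 ± 0.16 (SE, adjusted p = 2.8e-05). FCER1G was higher by 2.20 ± 0.18 (SE, adjusted p = 0.00012), and CTSW, encoding cathepsin W, by 2.08 ± 0.22 (SE, adjusted p = 0.00052). These 3 were called in every alternative. CCL5, GZMB and GNLY were lower in every alternative, and 1 of the 2 identifiers named GZMA was lower, a call lost with the matched T cells. HCST, another receptor adaptor, was the fifth gene called higher, a call lost with the matched T cells, without whole ileum pig 1 and without the count filter.

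**Figure D4:**
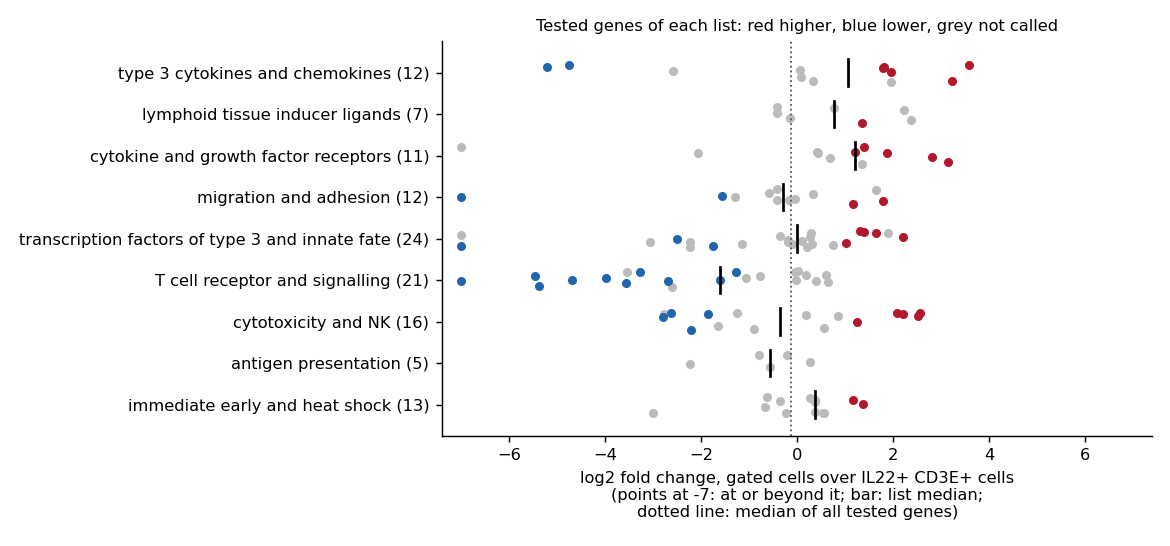
Log2 fold change of gated cells over IL22+ T cells for the tested genes of 9 lists (points, numbers tested in the labels), with the list median as a black bar and the median of all tested genes as a dotted line. Points drawn at -7 lie at or beyond it. T cell receptor genes lie mostly to the left, and 9 of the 11 receptor genes lie to the right of 0, of which 5 were called.

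Migration genes gave 2 higher and 2 lower of 12 tested, 1 and 1 of 11 without whole ileum pig 1 and 2 and 0 of 11 with the matched T cells. GPR183, an oxysterol receptor that guides lymphocytes, was at 1961 and 1488 CPM in gated cells against 460 and 568 CPM, higher by 1.78 ± 0.20 (SE, adjusted p = 0.00084). CXCR4 was at 1357 and 1370 CPM against 585 and 666 CPM, higher by 1.16 ± 0.15 (SE, adjusted p = 0.0014), a call lost without whole ileum pig 1. ITGB7, the gut-homing integrin chain, was lower at -1.56 ± 0.32 (SE, adjusted p = 0.020), a call lost with the matched T cells, with DESeq2 and with CD3D and CD3G also at 0. S1PR1, the receptor for exit from tissue, had 0 UMIs in the gate and 49 in IL22+ T cells, and its call was lost with the matched T cells, without whole ileum pig 1 and without the count filter. Of 13 immediate early and heat shock genes, which also respond to tissue dissociation, FOSL2 and NR4A3 were higher and 0 were lower. Neither was called with the matched T cells or without the count filter, and FOSL2 was lost in 5 alternatives, that without whole ileum pig 1 among them, where 1 of 12 was higher. None of 5 antigen presentation genes was called, at an adjusted p of 0.20 for SLA-DRA.

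By the rule for named genes, the 10 genes with the largest rise that held 50 CPM or more in both pigs were P2RY1, TAC3, CXCL2, FCER1A, PHACTR1, CXCL10, KIT, RAB32, LTC4S and RASL11A. TAC3, which encodes the neuropeptide neurokinin B, stood at 1691 CPM in gated cells of pig 1 and 905 CPM in pig 2, against 66.5 and 73.7 CPM in IL22+ T cells, higher by 4.24 ± 0.36 on the log2 scale (SE, adjusted p = 0.00028). RASL11A, a small GTPase gene, was at 929 and 707 CPM against 120 and 135 CPM (2.72 ± 0.31, SE, adjusted p = 0.00084). FCER1A, a chain of the high-affinity IgE receptor, was at 214 and 434 CPM against 42.5 and 33.8 CPM (3.13 ± 0.37, SE, adjusted p = 0.0010) and was found in 37 gated cells. These 3 genes were called in every alternative that tested them. On the lower side the 10 were SH2D1A, RHEX, CD28, IL6R, IGFBP2, CCR4, S1PR1, SPAI-2, PDCD1 and CD3D, of which 7 had 0 UMIs in the gate. With the matched T cells the calls of P2RY1, PHACTR1, CXCL10, RAB32, LTC4S, SH2D1A, RHEX, IGFBP2, SPAI-2 and PDCD1 were lost too. Those of CXCL10, RAB32, SH2D1A, IGFBP2 and SPAI-2 were also lost without whole ileum pig 1. SPAI-2, lost in 9 alternatives, was not called with pig as replicate block (adjusted p = 0.069). SH2D1A, an adaptor of T and NK cells, had 142 UMIs in IL22+ T cells and was at least 15.7-fold higher there.

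The next comparator was chosen as group 1 ILCs, by 3 or more CCL5 UMIs, 1 or more CD2 and FCER1G UMIs and 0 UMIs of IL22, CD3E, TRDC, CD79B and EPCAM, and held 1288 cells. CD3G was found in 94.4% and CD3D in 77.6% of them, against 89.5% and 65.2% of IL22- T cells, so they are called CCL5+FCER1G+ CD3E- cells here. They numbered 21 and 95 in PP pigs 1 and 2, 73 and 672 in non-PP, and 304 and 123 in whole ileum. Of the 398 cells summed as pig 1, 304 thus came from whole ileum pig 1, the library that went against its label. Of the 890 summed as pig 2, 672 came from non-PP. Of 6680 genes, 453 were higher in gated ILC3s (6.78%) and 453 lower (6.78%), 13.6% together, with a median of -0.14 over all tested, and without whole ileum pig 1 the counts were 273 and 236. KIT was at 55.6 and 54.3 CPM in these cells, KLRB1 at 209 and 126 CPM and LTB at 30.6 and 21.6 CPM, each under its level in the gated ILC3s of both pigs. The log2 fold changes were 3.57 ± 0.17 for KIT, 3.67 ± 0.45 for KLRB1 and 6.37 ± 0.23 for LTB (SE), and the highest adjusted p of these 3 was 0.00031. Cytokine and chemokine genes were higher in 9 of 12 tested (list median 4.51), and IFNG was lower. IL22 set the gated cells apart from this comparator by choice, so the choice favoured type 3 cytokine and receptor genes carried together with IL22. Receptors were higher in 7 of 11 (median 2.81). Lymphoid tissue inducer ligands were higher in 5 of 7 (median 4.67), with TNFSF10 lower, and in 3 of 5 without whole ileum pig 1. Markers of macrophages and dendritic cells summed to 968 CPM in these cells against 101 CPM in the gate. C1QA stood at 299 CPM in them, in 1.63% of the cells, and at 0 in the gate, and C1QA, C1QB and CST3 were called lower in gated ILC3s. Without whole ileum pig 1 none of 4 tested markers was called, and the part of such cells in the other differences was not tested.

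Cytotoxic genes such as GNLY and GZMB were higher in the CCL5+FCER1G+ CD3E- cells. CCL5 and FCER1G, which chose these cells, belong to the cytotoxicity list themselves, so the choice favoured cytotoxic cells. GNLY stood at 214 and 174 CPM in gated ILC3s of pigs 1 and 2 and at 39160 and 38659 CPM in those cells (log2 -7.58 ± 0.23, SE, adjusted p = 4.8e-08), and GZMB was lower at -6.48 ± 0.27 (SE, adjusted p = 2.5e-07). Of 14 tested identifiers of that list 8 were lower and 3 higher, KLRB1, CTSW and HCST. CD3G was lower in gated ILC3s at -4.95 ± 0.20 (SE, adjusted p = 2.2e-07), whereas CD5 was higher by 4.01 ± 0.37 (SE, adjusted p = 4.4e-05). Of 13 immediate early and heat shock genes 7 were higher in gated ILC3s and 0 lower, with FOS higher by 2.06 ± 0.22 and JUN by 1.96 ± 0.17 (SE, adjusted p = 0.00014 and 2.2e-05). With pig as replicate block 7 of the 13 were higher and 1 lower. The part of tissue dissociation in these differences was not tested.

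The third comparator was 12529 IL22- T cells, with 0 IL22 UMIs, 1 or more of CD3E and 0 of CD79B and EPCAM. IL22 and CD3E set these cells apart from the gate by choice. The choice thus favoured genes carried with IL22 in the gate and genes carried with CD3E in the T cells. Of 6683 genes 342 were higher in gated ILC3s (5.12%) and 319 lower (4.77%), 9.89% together, with a median of -0.14 over all tested, and without whole ileum pig 1 the counts were 225 and 178. KIT was at 44.0 and 44.9 CPM in IL22- T cells (log2 3.79 ± 0.17, SE, adjusted p = 4.5e-07), CXCL8 at 9.40 and 8.19 CPM and TAC3 at 2.05 and 0.931 CPM. SCIN, an actin-severing protein gene, was at 318 and 304 CPM in gated ILC3s and 4.33 and 2.67 CPM in IL22- T cells (6.44 ± 0.28, SE, adjusted p = 4.5e-07). Cytokine and chemokine genes were higher in 9 of 12 and lower in 2 (median 3.96; without whole ileum pig 1, 6 and 1 of 10), receptors higher in 8 of 11 (median 1.86), and cytotoxicity identifiers higher in 5 and lower in 10 of 16 (median -2.45). T cell receptor genes were lower in 10 and higher in 1 of 21, the latter CD40LG (median -1.39). Of 5 antigen presentation genes 4 were lower in gated ILC3s and 0 higher, and 2 were lower without whole ileum pig 1, with SLA-DRA at 175 and 99.2 CPM against 552 and 686 CPM (-2.21 ± 0.31, SE, adjusted p = 0.0011). The 3 comparisons share the gated cells, and each is given on its own.

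Within the gate, PP and non-PP cells were compared on UMIs summed per library. No gene passed the threshold among 653 tested, 0%, while 35 had an unadjusted p below 0.05, of which 23 were higher and 12 lower in PP, and DESeq2 also called 0. Without the filter on low counts 8 of 8498 genes were called, among them 6 of the 10 named here, TAC3, XCL1, NCOA7, DDIT4, IFITM3 and GNLY, at adjusted p values of 0.0098 to 0.039. The sums of non-PP rest on 6 and 12 cells. By the rule, the 5 genes of lowest p in each direction are named whether or not called. XCL1 stood at 1387 and 1244 CPM in PP pigs 1 and 2, 228 and 527 CPM in non-PP and 1194 and 1653 CPM in whole ileum (log2 1.69, 95% interval 0.85 to 2.54, adjusted p = 0.26). TAC3 was carried by 12 and 13 cells in PP, 0 and 1 cell in non-PP, and 4 and 6 cells in whole ileum (log2 2.86, 95% interval 1.04 to 4.68, adjusted p = 0.48). NCOA7, DDIT4 and IFITM3 were the other genes on the PP side, at adjusted p values of 0.20, 0.26 and 0.35. Both PP libraries lay above both non-PP libraries for each, which the choice by lowest p favoured.

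On the non-PP side were GNLY, LAPTM5, GZMB, FABP6 and CCPG1. GNLY was at 502 and 448 CPM in gated cells of non-PP pigs 1 and 2 and at 59.4 and 22.8 CPM in PP (log2 -3.57, 95% interval -4.78 to -2.36, adjusted p = 0.076). In B cells of the same libraries GNLY was at 337 and 2647 CPM in non-PP and at 81.0 and 221 CPM in PP, and the part of free RNA in the difference was not tested. Those B cells numbered 28 and 65 in non-PP and 3881 and 3800 in PP. JCHAIN, a marker of antibody-secreting cells, was at 29144 and 33230 CPM in the B cells of non-PP and 5146 and 4356 CPM in those of PP. FABP6, an ileal epithelial gene, was at 1825 and 290 CPM in gated cells and 8768 and 317 CPM in B cells of the non-PP libraries. KIT did not pass the threshold between dissections, with a 95% interval of -0.32 to 1.83 on the log2 scale.

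**Figure D5:**
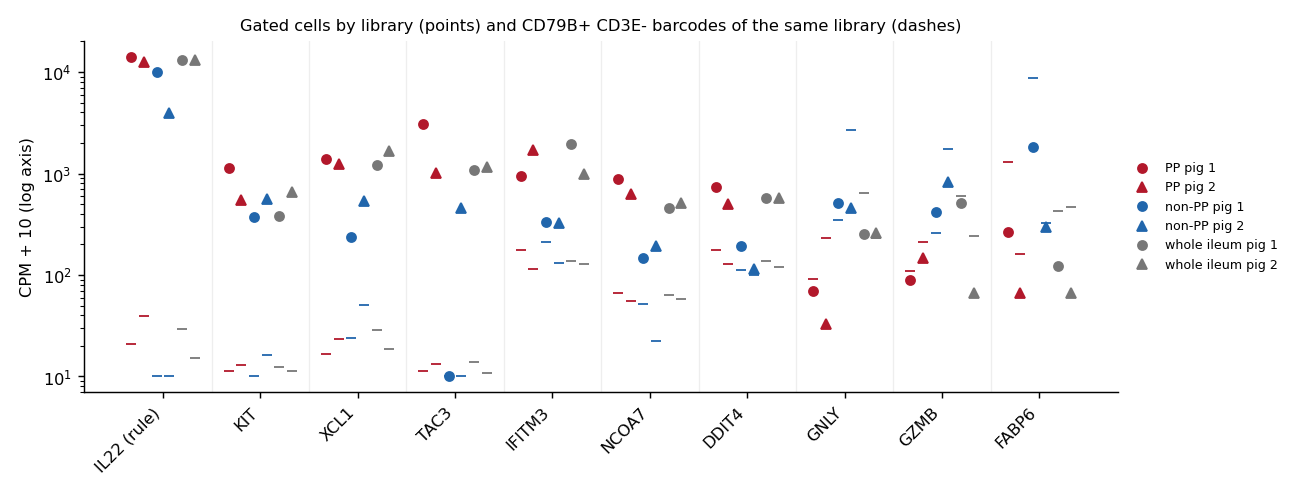
Level of 10 genes in CPM + 10 (log axis) in the gated cells of each ileal library (points, circles for pig 1 and triangles for pig 2) and in CD79B+ CD3E- barcodes of the same library (dashes in the same colour). The dashes of non-PP pigs 1 and 2 rest on 28 and 65 barcodes. XCL1, TAC3, IFITM3, NCOA7 and DDIT4 of PP lay above non-PP in both pigs, which their choice by lowest p favoured. The GNLY dash of each pig was, like its points, higher in non-PP than in PP. None of these genes passed the adjusted threshold with the filter on low counts, and 6 did without it.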

How the data were processed

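Droplet single-cell RNA-seq of 6 ileal and 2 PBMC libraries was used. The authors deposited unnormalized UMI counts, made with Cell Ranger on the pig genome Sscrofa11.1 with a modified annotation, before removal of free RNA, poor cells and doublets. The 4 runs of a library count as 1 replicate. Of 25880 genes, 17732 were named in the files, 969 through a supplied name table and 20 through a table of the study, and 7159 had no symbol. HLA-DRA and SLA-DRA are 1 gene here. Members, comparators and gene lists were chosen with earlier results of these data known.

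UMIs were summed per pig and population (125968 to 21479517 UMIs per sum) and fitted in edgeR 4.0.16 (R 4.3.3, filterByExpr, TMM, quasi-likelihood). SE is the log2 fold change over the square root of F. Named genes were list members and, per direction, the 10 largest called changes with a symbol, outside the gates, of equal sign in both pigs and at 50 CPM or more in both pigs on the higher side. Between dissections the 5 lowest p values per direction were used. Shares after thinning used at most 2000 cells per population. Doublets were scored with Scrublet in scanpy 1.11.5 (rate 0.07, limit 0.25) and removed only as an alternative. Other versions were Python 3.11.15, scipy 1.17.1 and DESeq2 1.42.0. The fit was tested on simulated data. Pairing rests on the labels, which give same-numbered libraries to 1 pig, although whole ileum pig 1 carried Y-linked transcripts that the other libraries of pig 1 lacked. Deviations between the pigs correlated at -0.0012 to 0.41 across pairs of populations over 3037 genes. A gene of the lists is not reported here by name.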

Additional observations from a re-analysis of the deposited data

Results flagged for a closer look

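Differences between gated ILC3s and IL22+ T cells were screened for 41 genes, and took opposite directions between dissections for 2. Opposite signs in both libraries of each dissection were the rule by which these 2 were chosen. For IL18R1, the IL-18 receptor, the mean log2 difference was 1.33 larger in PP than in non-PP, with both PP libraries positive and both non-PP libraries negative, and the difference between non-PP and whole ileum was -1.18. In the gated cells of the non-PP libraries IL18R1 was found in 2 cells each, at 91.3 and 52.7 CPM. For CD2 the difference in non-PP exceeded that in whole ileum by 0.61. The values for whole ileum include the library labelled whole ileum pig 1, which went against its label. These differences were not tested.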

How the results depend on the processing

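Against IL22+ T cells, 164 higher and 143 lower genes became 84 and 75 without the count filter, 79 and 68 without the library labelled whole ileum pig 1, and 31 and 22 with matched limits on the T cells, where 54 cells remained. DESeq2 called 174 higher and 85 lower. Of the 164 and 143, 150 and 118 were called again with pig as replicate block (163 and 135 calls). Against CCL5+FCER1G+ CD3E- cells, 453 and 453 became 204 and 222 with sums per library, 273 and 236 without that library, and 501 and 200 with DESeq2. Against IL22- T cells, 342 and 319 became 155 and 200, 225 and 178, and 425 and 126 with DESeq2. The cause was not tested, apart from fewer genes tested (4514 without that library, 2298 with sums per library) and fewer cells. A comparator with 2 or more CD3E UMIs, chosen after seeing the data, gave 182 and 128.

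PP against non-PP gave 8 calls without the filter, 6 of them among the 10 genes named for that comparison. The PP minus non-PP share kept its sign throughout, and with differences within pigs as replicate block it was 0.0334 at an exact p of 0.5. Without replicate 1 or 2 it was 0.00234 and 0.0645. Without a pig, 1 sum per population was left and no genes could be called. IL17F turned to -0.07 with an IL22 limit of 5, -0.03 without whole ileum pig 1, -1.02 with the matched T cells, and lay between -0.12 and 0.68 with 1 pig left out. IL26 and IL18R1 turned to -0.61 and -0.46 with the matched T cells. Unthinned shares were 72.3% for KIT, 31.3% for IL23R and 53.0% for CXCL8. Depth limits genes at a few UMIs, since the gate held 125968 UMIs in pig 1 and 161261 in pig 2.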
